A study of Gallus gallus with 3 samples.

Results

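Cholesterol synthesis was followed through 8 genes in 3 libraries of chicken DT40-ASF cells. They were taken by their gene symbols, from a list of the pathway put together with earlier results of these data known: HMGCS1, IDI1, FDPS, SQLE, LSS and DHCR7, which encode enzymes of the pathway, and SREBF2 and INSIG1, which encode its regulators. These are 8 of the 12260 genes in the deposited tables. All 8 had FPKM (fragments per kilobase of transcript, scaled to library size), and 7 had read counts, since FDPS was listed in the FPKM table alone. All 7 counted genes passed the filter on low counts, which left 10203 of 11877 counted genes.

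DT40 is a B cell line from a chicken bursal lymphoma, used widely because its genes are readily targeted. In DT40-ASF, by general knowledge rather than by the files, chicken SRSF1 is disrupted and replaced by the human gene, and the labels describe the cells of all 3 libraries as reconstituted. The control was 1 library of untransfected DT40-ASF cells. The other 2 libraries, clone 41 and clone 47, came from DT40-ASF cells that carry a knock-in of SRSF1-3, an isoform of the splicing regulator SRSF1. All cells were grown in the same medium with bovine and chicken serum. Each clone was 1 library, so the effects of transfection and of a clone's own history cannot be told apart from that of the knock-in.

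Cholesterol is built from acetyl-CoA through mevalonate, isoprenoid units, squalene and lanosterol. The genes of the pathway are switched on together by SREBP transcription factors, chiefly the product of SREBF2, which are held in the endoplasmic reticulum until sterols fall. INSIG proteins hold the SREBP complex there when sterols are plentiful, and INSIG1 is itself an SREBP target, which closes a feedback loop. Cultured lymphoid cells take up lipoprotein cholesterol from serum and also make their own.

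The control library held 44868987 reads, against 42439517 for clone 41 and 41760372 for clone 47, and in the control the 7 counted genes held between 1987 and 11930 reads each. SRSF1 itself stood at 31.1 CPM (read counts relative to library size, after TMM scaling for library composition) in the control, against 49.2 for clone 41 and 129 for clone 47; these gene-level values do not show which isoform or copy was read. All 10 B cell markers examined were detected in each library, with a summed level of 850 CPM in the control against 710 for clone 41 and 505 for clone 47. T cell markers summed to between 17.7 and 34.5 CPM. CD8A was the highest of them in each library, at 8.88 to 22.4 CPM, with CD3D next at 5.32 to 7.32 CPM. CD28 was at 4.99 CPM in the control against 1.11 for clone 41 and 0.642 for clone 47. CD4 was at 0 in both clones and 1 read in the control. LCK was highest in clone 47, at 2.59 CPM against 0.266 in the control and 0.124 for clone 41. CD3E was at 0.843 CPM in the control against 0.247 for clone 41 and 0.757 for clone 47. Myeloid markers summed to between 78.8 and 100.3 CPM, mostly SPI1, which B cells also express. SPI1 was at 51.9 CPM in the control against 64.6 for clone 41 and 72.6 for clone 47. MPEG1 ran the other way in clone 47, at 5.27 CPM against 36.1 in the control and 35.5 for clone 41. CSF1R was at 0 or 1 read in each library. Fibroblast markers summed to between 15.9 and 29.6 CPM, nearly all COL1A2, and liver markers to between 3.67 and 7.12 CPM. The 6 erythroid and thrombocyte markers were not analysed here. In bulk RNA, fewer cells of a type and less RNA per cell cannot be told apart. The summed level of the B cell markers was lowest in clone 47, as was that of the 7 counted cholesterol genes (1177 CPM in the control against 1311 for clone 41 and 884.5 for clone 47); its part in the results on clone 47 was not tested. Single B cell markers differed in this: BTK, BLNK and POU2AF1 were lowest in clone 47, while PAX5 (36.6 CPM in the control against 37.7 for clone 41 and 38.3 for clone 47) and EBF1 (7.36 CPM against 7.86 and 9.01) were highest there.

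The levels of the 8 genes were compared first, on the FPKM scale, which allows genes of different length to be set side by side. In the control, FDPS was highest at 78.4 FPKM, which placed it at percentile 91.8 of the 11929 genes with FPKM. IDI1 followed at 70.6 FPKM, INSIG1 at 66.0, SQLE at 59.7, HMGCS1 at 58.4 and SREBF2 at 55.6. LSS lay lower at 32.1 FPKM, and DHCR7 was lowest at 13.8 FPKM, at percentile 61.6. The median gene among the 8305 with a mean FPKM of at least 1 was at 16.3 FPKM in the control, so 7 of the 8 cholesterol genes lay above it.

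The order changed between libraries mainly through INSIG1. In clone 41 INSIG1 was highest at 88.0 FPKM, just above IDI1 at 87.9. In clone 47 INSIG1 was at 33.9 FPKM, below SQLE at 34.9 and above LSS and DHCR7 alone, while FDPS was highest at 78.1. DHCR7 was lowest and LSS next to lowest in all 3 libraries, and the highest DHCR7 value (13.8 FPKM, control) lay below the lowest LSS value (16.0 FPKM, clone 47). The ranges of HMGCS1 (46.0 to 58.4 FPKM), SREBF2 (48.0 to 57.4 FPKM) and SQLE (34.9 to 59.7 FPKM) overlapped over the 3 libraries, so these neighbours were not separated beyond their spread. The same held for FDPS (68.8 to 78.4 FPKM) and IDI1 (66.4 to 87.9 FPKM).

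**Figure D1:**
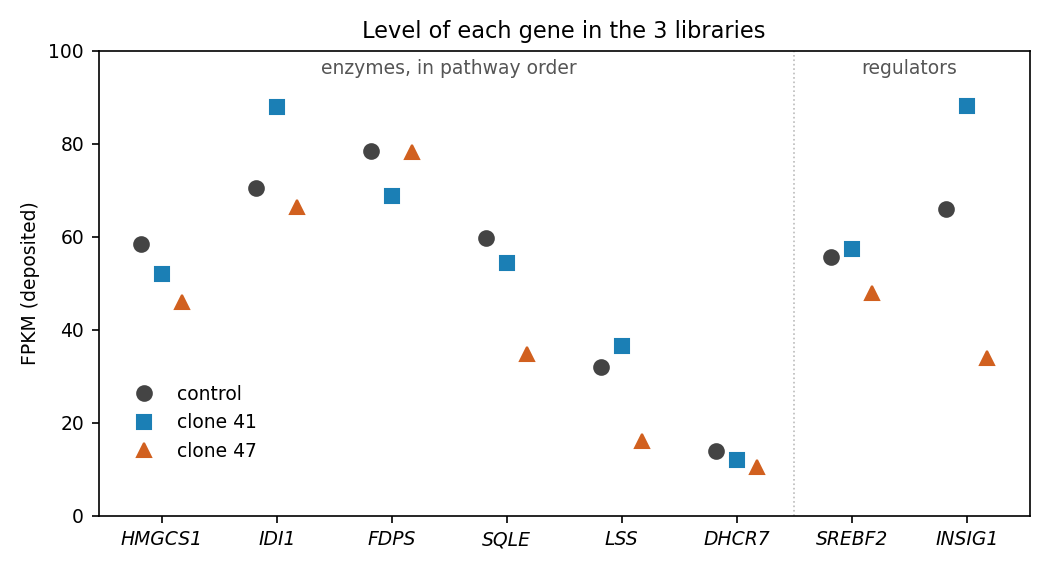
Deposited FPKM of each of the 8 genes (vertical axis, linear, from 0) in the control, clone 41 and clone 47, 1 point per library, with the 6 enzymes in pathway order and the 2 regulators at the right. INSIG1 spans 33.9 to 88.0 FPKM, LSS 16.0 to 36.5 FPKM and DHCR7, the lowest gene, 10.6 to 13.8 FPKM. On this linear axis DHCR7 looks flat, although clone 47 was at 0.764 times the control.

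Each gene was then compared between the clones and the control in the counts. Knock-in against control, with both clones as replicates, asked whether the clones together differed from the control. No gene of the 10203 passed edgeR's quasi-likelihood test at an adjusted p below 0.05 (0.0% called, with 81 at an unadjusted p below 0.05), and so none of the 7 counted cholesterol genes did (adjusted p = 1 for each). The smallest unadjusted edgeR p among the 7 was 0.382, for SQLE. With 1 residual degree of freedom, the standard errors of the fitted log2 fold changes of the 7 genes lay between 0.42 and 0.51, and a p above the threshold does not show that levels were equal. DESeq2 and the legacy estimator of edgeR each called 2 genes and limma-voom 1, none of them among the 7.

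No test is possible for a single clone against the control. Ratios of single libraries are therefore given with exact conditional binomial 95% intervals. Such intervals hold counting error alone: PCR copies of a molecule are counted separately, and no clone was sequenced more than once.

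Among the enzymes of the mevalonate and isoprenoid steps, both clones lay within 1.5-fold of the control. HMGCS1, which makes the precursor of mevalonate, had 11930 reads in the control against 10434 for clone 41 and 9745 for clone 47, or 265 CPM against 258 CPM and 223.5 CPM. Clone 41 stood at 0.975 times the control (interval 0.950 to 1.001, which includes 1), clone 47 at 0.844 times (0.822 to 0.867). The control was highest and clone 47 lowest, and the fitted log2 fold change of the knock-in was -0.14 (SE 0.42).

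IDI1, which interconverts the isomers of the basic isoprenoid unit, had 9074 reads in the control against 10521 for clone 41 and 8056 for clone 47. Its ratio to the control was 1.29 for clone 41 (interval 1.26 to 1.33) and 0.918 for clone 47 (interval 0.890 to 0.946). The control lay between the clones, and among the 7 counted genes IDI1 was the nearest to the control in clone 47; its fitted log2 fold change was 0.14 (SE 0.43).

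FDPS, which joins those units into farnesyl diphosphate, the branch point to sterols and to prenyl groups, had FPKM values only. They were 78.4 in the control against 68.8 for clone 41 and 78.1 for clone 47, giving ratios of 0.877 for clone 41 and 0.997 for clone 47. The lowest library for FDPS was thus clone 41, whereas clone 47 was lowest for the other 7 genes. In limma on log2(FPKM + 1) the fitted knock-in difference of FDPS was -0.10 on that scale (adjusted p = 1).

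The enzymes that act on squalene showed wider differences in clone 47. SQLE, squalene epoxidase, which adds the first oxygen and is a rate-limiting step after mevalonate, had 8930 reads in the control against 7667 for clone 41 and 4986 for clone 47, or 198 CPM against 190 CPM and 114 CPM. Clone 41 stood at 0.957 times the control (interval 0.928 to 0.987), clone 47 at 0.577 times (0.557 to 0.598). The control was highest, with clone 41 close to it and clone 47 apart. The fitted log2 fold change of SQLE was -0.38 (SE 0.43), the farthest from 0 of the 7.

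LSS, lanosterol synthase, which folds squalene epoxide into the ring system, had 4323 reads in the control against 4841 for clone 41 and 2150 for clone 47, or 95.9 CPM against 120 CPM and 49.3 CPM. Its ratio to the control was 1.25 for clone 41 (interval 1.20 to 1.30) and 0.514 for clone 47 (interval 0.488 to 0.541). The control lay between the clones, and the fitted log2 fold change was -0.18 (SE 0.48). As a plain FPKM ratio, clone 47 was at 0.499 times the control, so LSS lay at the edge of a 2-fold difference on both measures.

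DHCR7, which carries out the last reduction to cholesterol in one branch of the pathway, had 1987 reads in the control against 1606 for clone 41 and 1430 for clone 47, or 44.1 CPM against 39.7 CPM and 32.8 CPM. Clone 41 stood at 0.901 times the control (interval 0.843 to 0.963), clone 47 at 0.744 times (0.694 to 0.797). The control was highest, and the fitted log2 fold change was -0.28 (SE 0.51).

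Of the regulators, SREBF2 lay near the control in both clones and INSIG1 did not. SREBF2, the gene of the main transcription factor of the pathway, had 10873 reads in the control against 10562 for clone 41 and 9325 for clone 47, or 241 CPM against 261 CPM and 214 CPM. Its ratio to the control was 1.08 for clone 41 (interval 1.05 to 1.11) and 0.886 for clone 47 (interval 0.862 to 0.911). The control lay between the clones, and the fitted log2 fold change of SREBF2 was -0.02 (SE 0.42).

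INSIG1, the sterol-dependent retention factor, had 5935 reads in the control against 7376 for clone 41 and 2884 for clone 47, or 132 CPM against 182 CPM and 66.1 CPM. Clone 41 stood at 1.39 times the control (interval 1.34 to 1.43), clone 47 at 0.502 times (0.480 to 0.525). This was the highest ratio of the 7 genes in clone 41 and the lowest in clone 47. The fitted log2 fold change, an average over clones on opposite sides of the control, was -0.08 (SE 0.49).

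**Figure D2:**
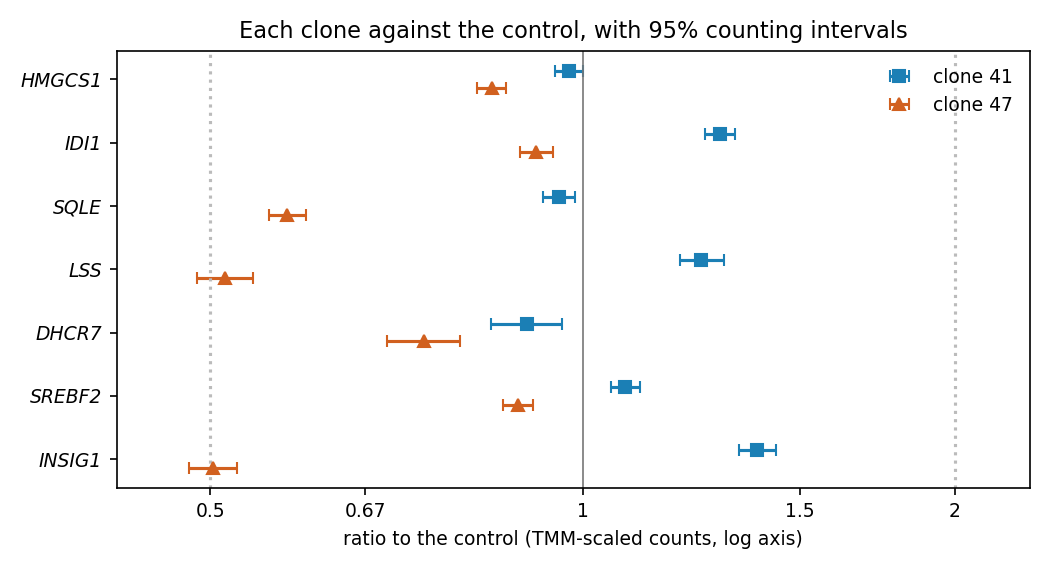
Ratio of TMM-scaled counts to the control (horizontal log axis) for the 7 counted genes in clone 41 (squares) and clone 47 (triangles), with exact 95% intervals of counting error; dotted lines mark 2-fold. All 7 triangles lie below 1, from 0.502 for INSIG1 to 0.918 for IDI1, and the squares run from 0.901 for DHCR7 to 1.39 for INSIG1.

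As a group, the 7 counted genes lay on both sides of the control in clone 41 and below it in clone 47. Sizes were counted as differences of log2 CPM, to which a prior count of 2 was added. For clone 41, 0 of the 7 reached 2-fold in either direction, where 8.75% of all tested genes did, and 0 reached 1.5-fold, where 17.9% did. Among the 7912 tested genes that averaged 5 CPM or more, as all 7 do, the shares were 1.78% at 2-fold and 7.47% at 1.5-fold. Below the control were 3 and above it 4, beside 50.1% of all tested genes below. Their median log2 ratio was 0.11, with 0.00 over all tested genes. On log2(FPKM + 1) it was 0.04 over the same 7 genes and -0.05 over the 8 with FDPS, with -0.03 over all genes. The median thus lay close to the control, and on FPKM its side turned on whether FDPS was included.

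For clone 47 all 7 lay below the control, where 49.8% of all tested genes did, and the median log2 ratio was -0.43, with 0.00 over all tested genes. On FPKM all 8 were below the control, with FDPS at 0.997 times. None of the 7 reached 2-fold, where 17.0% of all tested genes and 8.53% of those averaging 5 CPM or more did; INSIG1 at -0.99 and LSS at -0.96 fell just short of that limit. At 1.5-fold INSIG1, LSS and SQLE were counted, 3 of 7, where 35.8% of all tested genes and 27.1% of those averaging 5 CPM or more were. These 3 stood at percentiles 7.63 (INSIG1), 8.07 (LSS) and 11.2 (SQLE) of the log2 ratios of all tested genes. Genes of 1 library are not replicates, and no test was made of the shared direction.

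Clone 47 was the lowest of the 3 libraries for all 7 counted genes, as it was for 40.2% of all tested genes. The control lay above both clones for HMGCS1, SQLE and DHCR7, 3 of 7, beside 25.9% of all tested genes. For HMGCS1 the counting interval of clone 41 included 1. For IDI1, LSS, SREBF2 and INSIG1 it lay between them, so the groups overlapped. Both comparisons share the 1 control library.

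**Figure D3:**
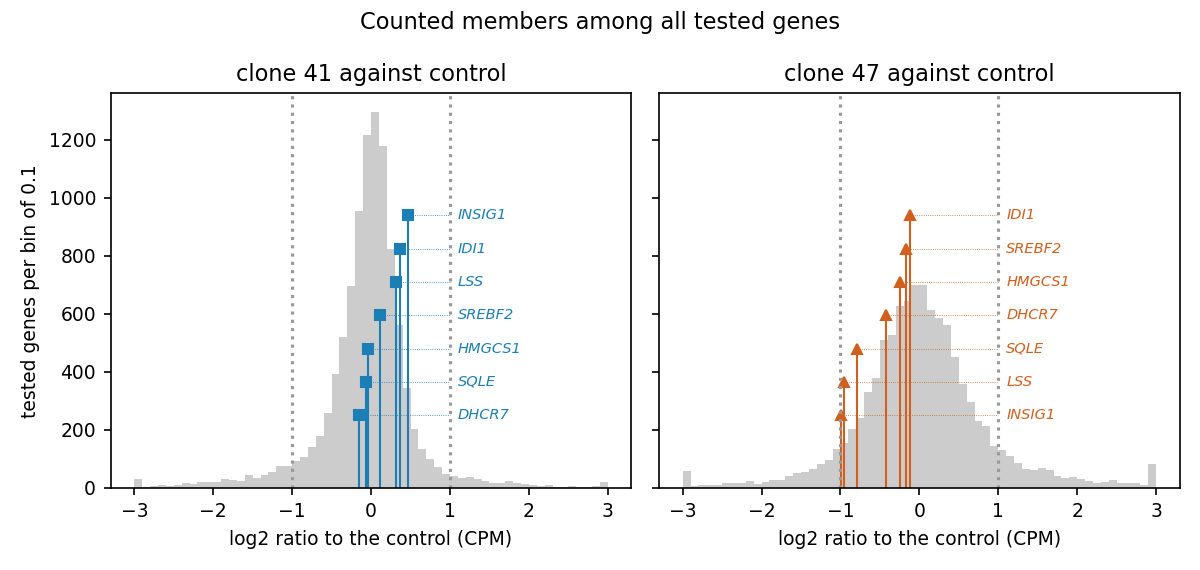
Histograms (grey) of the log2 CPM ratio to the control over the 10203 tested genes, for clone 41 at the left and clone 47 at the right, with values beyond the axis placed in the outermost bins; coloured stems mark the 7 counted genes, stem height only separates their labels, and dotted lines mark 2-fold. In clone 41 the genes lie on both sides of 0, from -0.15 to 0.47, and in clone 47 all lie below it, from -0.99 to -0.12.

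Clone 47 against clone 41 compared the knock-in clones directly, with 1 library each and no test. INSIG1 in clone 47 was at 0.363 times its level in clone 41 (interval 0.347 to 0.379) and LSS at 0.412 times (interval 0.391 to 0.433). These 2 of 7 were at least 2-fold apart, where 20.8% of all tested genes and 11.8% of those averaging 5 CPM or more were. SQLE was at 0.603 times, IDI1 at 0.710 times, SREBF2 at 0.819 times, DHCR7 at 0.826 times and HMGCS1 at 0.866 times. FDPS ran the other way on FPKM, at 1.14 times. The 7 log2 ratios between the clones spread from -1.46 to -0.21 with an SD of 0.51, beside an SD of 0.70 over the 7912 genes averaging 5 CPM or more.

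Further enzymes of the pathway were examined next, 16 listed and 12 tested, and none passed edgeR's test (adjusted p = 1 for each). For clone 41, 9 were below and 3 above the control, beside 50.1% of all tested genes below, with a median log2 ratio of -0.11. For clone 47, 9 were below and 3 above, beside 49.8% of all tested genes below, with a median of -0.21. No enzyme of this list reached 2-fold in either clone, where 8.75% of all tested genes did for clone 41 and 17.0% for clone 47. Among the tested genes averaging 5 CPM or more, the shares were 1.78% and 8.53%. The 7 members all lay below the control in clone 47. With them, 16 of 19 tested genes lay below it there and 12 of 19 did in clone 41.

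FDFT1, squalene synthase, which acts just before SQLE, was at 242 CPM in the control against 225 for clone 41 and 146.5 for clone 47, with ratios of 0.927 for clone 41 and 0.604 for clone 47. MSMO1, which removes methyl groups from early sterols after LSS has acted, had ratios of 0.986 for clone 41 and 0.646 for clone 47.

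Of the further enzymes before LSS, MVD, named after its values were seen, lay slightly above the control in clone 47. Its ratio was 1.04 there (interval 0.981 to 1.11, which includes 1) and 0.777 for clone 41. The sterol enzymes after LSS did not share 1 direction in clone 47. CYP51A1, the lanosterol demethylase, which acts between LSS and MSMO1, was at 120 CPM in the control against 128 for clone 41 and 175 for clone 47, with ratios of 1.07 for clone 41 (interval 1.02 to 1.11) and 1.46 for clone 47 (interval 1.41 to 1.51). LBR, a sterol reductase that also anchors chromatin at the nuclear envelope, had ratios of 0.772 for clone 41 and 0.827 for clone 47. NSDHL and HSD17B7, which act with MSMO1 in removing methyl groups and were named after their values were seen, had ratios of 0.742 and 1.36 for clone 41, and of 1.02 and 0.755 for clone 47.

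Genes of SREBP processing and its regulators, 8 listed and 6 tested, had median log2 ratios of 0.12 for clone 41 and -0.14 for clone 47, and none passed edgeR's test. More than 2-fold below the control in clone 47 was SREBF1, 1 of the 6, beside 7.57% of all tested genes at least 2-fold lower. Among genes averaging 5 CPM or more, as SREBF1 does, 350 of 7912 were at least 2-fold lower. SREBF1, the SREBP gene that chiefly drives fatty acid synthesis, was at 116 CPM in the control against 159 for clone 41 and 48.3 for clone 47. Its ratio to the control was 1.37 for clone 41 (interval 1.32 to 1.42) and 0.417 for clone 47 (interval 0.397 to 0.439). SREBF1, like INSIG1 and LSS, was thus above the control in clone 41 and near or below 0.5 times it in clone 47. INSIG2, the relative of INSIG1, had ratios of 0.900 for clone 41 and 0.616 for clone 47 (interval 0.577 to 0.656), so it lay below the control in clone 41, where INSIG1 lay above. MBTPS1, a Golgi protease that cleaves SREBPs, had ratios of 1.35 for clone 41 and 0.992 for clone 47, the latter at 1.03 on FPKM. RNF139, a ubiquitin ligase of the endoplasmic reticulum that binds INSIG proteins, had ratios of 1.07 and 0.826 in the same order. In clone 47, 4 of the 6 lay below the control and 2 above, beside 49.8% of all tested genes below. The 2 above, named after their values were seen, were RNF145 at 1.76 times the control and MBTPS2 at 1.02 times.

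Genes of sterol uptake, transport, storage and efflux, 18 listed and 14 tested, had median log2 ratios of 0.00 for clone 41 and -0.64 for clone 47, and none passed edgeR's test. Of the 14, 11 were below the control in clone 47 (49.8% over all tested genes), and 3 of them at least 2-fold (7.57% over all tested genes). ABCG1, a sterol exporter and 1 of the 3, had only 80 reads in the control against 104 for clone 41 and 21 for clone 47. CH25H, which makes an oxysterol, was another of the 3, named after its values were seen, and had 20 reads against 17 and 2. In clone 41 its ratio was 0.948 on counts and 1.61 on FPKM, on opposite sides of the control. MYLIP, a ubiquitin ligase for lipoprotein receptors and the last of the 3, had 241 reads in the control. Its ratios were 0.865 for clone 41 and 0.476 for clone 47, the latter at 0.526 on FPKM, short of 2-fold. NPC1, which exports cholesterol from lysosomes, was at 382 CPM against 348 CPM and 246 CPM, with ratios of 0.910 and 0.644. LIPA, the lysosomal lipase that frees cholesterol from esters, had ratios of 1.35 for clone 41 and 0.602 for clone 47. STARD4, OSBPL1A and NR1H3, chosen for mention once their ratios were known, were the 3 above the control in clone 47. Their ratios were 1.31, 1.15 and 1.05 there, and 0.970, 0.989 and 1.02 for clone 41. On FPKM, NR1H3 in clone 41 was at 0.976 times, on the other side of the control. SCARB1, chosen likewise, lay farthest of the 14 from the control in clone 41, at 0.519 times, and at 0.902 times in clone 47.

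Fatty acid synthesis, 13 listed and 11 tested, had median log2 ratios of 0.09 for clone 41 and -0.25 for clone 47, and none passed edgeR's test. SCD, stearoyl-CoA desaturase, was at 256 CPM in the control against 273 for clone 41 and 78.5 for clone 47, with ratios of 1.06 for clone 41 and 0.306 for clone 47 (interval 0.295 to 0.318). ACLY, which supplies cytosolic acetyl-CoA to both sterols and fatty acids, was at 651 CPM against 567 CPM and 323 CPM, with ratios of 0.871 and 0.496. FASN, the fatty acid synthase, had ratios of 1.08 for clone 41 and 0.890 for clone 47, and ELOVL5, an elongase, 0.767 and 0.631. In clone 47, 9 of the 11 lay below the control and 2 above, beside 49.8% of all tested genes below. The 2 above were ACSS2 and MID1IP1, named after their values were seen. Their ratios were 1.15 and 1.21 for clone 41, and 1.71 and 1.83 for clone 47. SCD and ACLY were the 2 of the 11 that lay at least 2-fold below the control in clone 47, beside 7.57% of all tested genes. Among genes averaging 5 CPM or more, as SCD and ACLY do, 350 of 7912 lay that far below. On FPKM, ACLY in clone 47 was at 0.515 times, and SCD in clone 41 was at 0.992 times, on the other side of the control.

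Genes of the non-sterol isoprenoid branch, which draws on the product of FDPS, 15 listed and 10 tested, had median log2 ratios of -0.02 for clone 41 and -0.03 for clone 47, and none passed edgeR's test. For clone 47, 5 lay above and 5 below the control, beside 49.8% of all tested genes below. None reached 2-fold there, where 17.0% of all tested genes and 8.53% of those averaging 5 CPM or more did. NUS1, of dolichol synthesis, had ratios of 0.866 for clone 41 and 0.782 for clone 47. DHDDS, also of dolichol synthesis and named after its values were seen, lay above the control in both clones. Its ratios were 1.18 for clone 41 and 1.45 for clone 47. PDSS1 and PDSS2, which build the side chain of ubiquinone, had ratios of 1.21 and 0.944 for clone 41, and of 0.776 and 1.13 for clone 47; the deposited FPKM put PDSS2 in clone 47 on the other side of the control, at 0.813 times. RABGGTB, a subunit of the enzyme that prenylates Rab proteins, had ratios of 0.971 and 1.19.

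**Figure D4:**
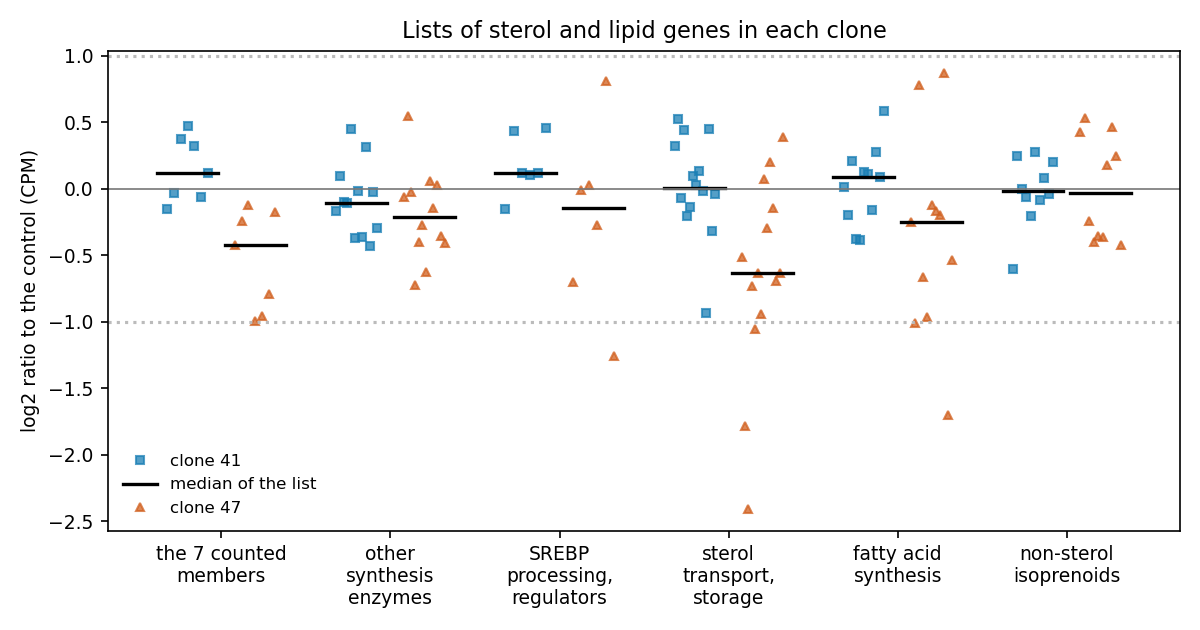
Log2 CPM ratio to the control (vertical axis) of each tested gene in the 7 counted members and 5 further lists, for clone 41 (squares) and clone 47 (triangles), 1 point per gene; black bars are list medians and dotted lines mark 2-fold. In clone 47 the medians run from -0.64 for sterol transport and storage to -0.03 for the non-sterol isoprenoid branch, with -0.43 for the members.

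The genes outside these lists whose pattern was nearest to the median of the 7 members were sought by distance in the plane of the log2 ratios to the control, over 3 libraries and 7856 genes that averaged 5 CPM or more. They were XPNPEP1, PPP2R3C, TRIM13, AQR and EXOC5, with ratios of 1.08 to 1.09 for clone 41 and 0.737 to 0.749 for clone 47, at distances of 0.00557 to 0.0136. In all, 198 genes lay within 0.1 of that median, which joins the medians of both clones and is not the pattern of any 1 member.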

How the data were processed

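RNA was measured in 1 control library and 2 knock-in libraries, grouped by genotype label. Per the labels' protocols, enriched mRNA was made into strand-specific, PCR-amplified libraries and read from both ends. The submitters' processing notes name TopHat2, Bowtie, Cufflinks 2.2.1, Cuffdiff and build galGal4. How reads were assigned to genes (tool, annotation, strand) was not given in the sources used here. Per gene, the deposited counts are whole reads and the deposited FPKM values the authors' normalised read counts, per the file headers and cover sheet. The control and each clone gave 1 library, and nothing in the labels names replicate cultures. The p-values therefore rest on the spread between the 2 clones, estimated with information shared across genes, and hold none within the control. A gene's standard error need not follow its own difference between the clones. For DHCR7 that log2 difference was -0.28 and the edgeR standard error 0.51, and for INSIG1 they were -1.46 and 0.49.

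Counts were filtered with filterByExpr (minimum count 10, minimum total count 15) and scaled by TMM in edgeR 4.0.16. The knock-in was tested with the newer quasi-likelihood estimator of edgeR and Benjamini-Hochberg adjustment at 0.05, which takes the single control to be as variable as the clones. DESeq2 1.42.0, and limma 3.58.1 on voom values, log2(FPKM + 1) and log2(FPKM + 0.1), were alternatives. A library with 0 reads of a gene could still hold it at 0.0666 CPM (control), 0.0742 (clone 41) or 0.0688 (clone 47), taken as 3 counts.

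The members and gene lists were chosen with earlier results of these data known. Of each other list the text names members past the threshold, those averaging 1 CPM or more that lay 2-fold or more from the control in a clone, and otherwise the most abundant up to 4, besides FDFT1 and CYP51A1; a few listed items are not reported, and the lists are counted without them. List symbols were looked up directly and, where absent, by a known synonym. Every listed gene that was found was found under its own symbol. Listed genes that were not tested had no row in the counts used here or too few reads.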

Additional observations from a re-analysis of the deposited data

How the results depend on the processing

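For knock-in against control, where edgeR called 0 genes, the legacy quasi-likelihood estimator gave 2, the DESeq2 Wald test 2 and limma-voom 1. DESeq2 size factors, total-count scaling, no filter, and limma on log2(FPKM + 1) or log2(FPKM + 0.1) gave 0, with 41 to 179 genes at an unadjusted p below 0.05. The number of members past the limit in clone 47 went from 0 at 2-fold to 3 at 1.5-fold. The clone 41 median of 0.115 became 0.0384 with total-count scaling, -0.0459 on log2(FPKM + 1) and -0.0466 on log2(FPKM + 0.1), both over 8 genes, and 0.0447 on log2(FPKM + 1) over the 7 counted genes, a setting chosen after seeing the data; the cause was not tested. The clone 47 median lay between -0.43 and -0.35 in every setting run, and none of the 7 changed sign in either clone under DESeq2 size factors, total-count scaling, a prior count of 0.5 or log2(FPKM + 1). Their sizes did shift. In clone 41, SREBF2 went from 0.11 to 0.04 with total-count scaling. HMGCS1 in clone 41 went from -0.04 to -0.11 with total-count scaling and -0.16 on log2(FPKM + 1). The counting intervals were computed under TMM scaling alone and hold no such shift. With total counts, the all-gene median shifted to -0.08 (clone 41) and 0.06 (clone 47). For clone 41 the all-gene median was -0.0275 on log2(FPKM + 1) and -0.0555 on log2(FPKM + 0.1). Leaving out either clone leaves 1 library against 1, with no residual degrees of freedom and so no test; the values are then the ratios of the other clone. No paired analysis was possible, since there was 1 control library against 2 knock-in libraries. The replicate numbers were given in accession order and mark no pairing.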
